A study of Homo sapiens with 5 samples.

Results

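The kinesin family (KIF) genes described here are the symbols in the deposited tables that begin with KIF and a digit, 40 of the 20030 symbols listed. They were sorted by known role into 13 mitotic genes, 13 genes of cargo transport and 14 others, which act at cilia, centrioles or microtubule ends or whose role is less sure. RNA sequencing was done on HCT116, an established human colorectal cancer cell line. Cells received siRNA against SP1 (1 library), siRNA against SP3 (1 library), siRNA against both (1 library, called the double knockdown here), or were labelled control (2 libraries, control 1 and control 2). An siRNA is a small RNA duplex that leads to the cleavage of a matching transcript; the sources used here give neither its sequence, amount and hours of treatment nor the strand setting of the libraries. All 5 libraries come from 1 cell line, and no knockdown has a replicate.

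Kinesins are motor proteins that use ATP to move along microtubules or to shorten them. Mitotic kinesins build the spindle, move chromosomes and bring about cell division, and their transcripts are made mainly late in the cell cycle, while transport kinesins carry vesicles, endosomes and mitochondria in dividing and resting cells alike. SP1 and SP3 belong to a family of zinc finger proteins that bind GC-rich promoter elements known as GC boxes, and they act on many promoters in epithelial cells.

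Library denominators, recovered from the counting steps of the deposited values, lay between 14678068 reads for the double knockdown and 15970519 for the SP3 siRNA. Levels are given in FPKM, a count of fragments scaled both to transcript length and to library size. SP1 itself was listed at 15.8, 27.5 and 16.1 FPKM after SP1, SP3 and double siRNA, against 36.6 and 37.2 FPKM in the controls. SP3 was listed at 14.3, 5.42 and 6.67 FPKM in the same knockdown libraries, against 13.3 and 13.0 FPKM in the controls. Each targeted transcript was thus lowest in libraries that received its siRNA, and SP1 was also lower after SP3 siRNA (limma adjusted p = 0.000165). Of 8 epithelial markers, 5 reached at least 1 FPKM in every library and 1 was listed at 0 in all. Summed markers of endothelial cells stayed between 0.139 and 0.428 FPKM and those of fibroblasts between 4.39 and 9.03 FPKM. Summed leukocyte markers lay between 56.6 and 94.2 FPKM, with 1 of 6 at 1 FPKM or more in every library, and the part of other cell types in the results below was not tested.

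Of the 40 KIF genes, 30 reached at least 1 FPKM in at least 1 library and were tested: 11 mitotic, 12 transport and 7 others. Because FPKM is scaled to transcript length, levels can be set side by side between genes. In the controls the highest KIF transcript was KIF5B, a transport motor, and the next 5 were the mitotic KIF22, KIF2C, KIF23, KIF20A and KIF18B. Summed over its 13 genes, the mitotic class came to 40.6, 41.0 and 57.8 FPKM after SP1, SP3 and double siRNA, against 122 and 102 FPKM in control 1 and control 2. The transport class came to 71.3, 101 and 76.7 FPKM in the same knockdown libraries, against 79.8 and 77.3 FPKM in the controls. The mitotic class therefore held 27.9%, 24.2% and 35.1% of all KIF FPKM in the knockdown libraries and 52.8% and 49.3% in the controls. The ratio of the mitotic to the transport sum was 0.569, 0.407 and 0.754 after SP1, SP3 and double siRNA, against 1.53 and 1.32 in the controls.

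**Figure D1:**
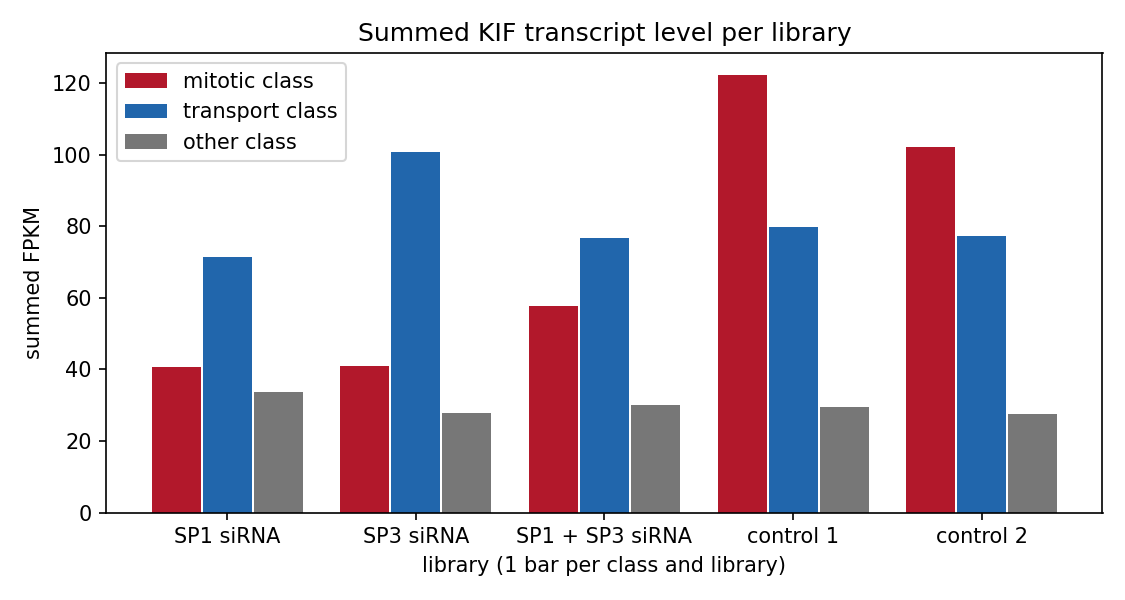
Summed FPKM (vertical axis) of the mitotic, transport and other KIF genes in each of the 5 libraries (horizontal axis), 1 bar per class and library, with no error bars. The mitotic bar is the tallest in both controls, at 122 and 102 FPKM, and stands below the transport bar in the 3 knockdown libraries.

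Transcripts of the mitotic kinesins fell in each knockdown, with the exception of KIF18A in the double knockdown. All 11 tested members were called lower after SP1 siRNA and all 11 after SP3 siRNA, and 10 of 11 were called lower in the double knockdown, with none called higher. Their median log2 difference was -1.10 after SP1 siRNA (range -2.07 to -0.56), -1.30 after SP3 siRNA (range -2.40 to -0.40) and -0.89 in the double knockdown (range -1.91 to -0.11). Differences are on the log2(FPKM + 1) scale, and a gene was called at a limma adjusted p under 0.05 (two-sided, Benjamini-Hochberg over all 11728 genes tested). Of all genes tested, 28.8% were called lower after SP1 siRNA, 32.1% after SP3 siRNA and 31.1% in the double knockdown (65.4%, 61.6% and 63.0% in either direction), with median differences of 0.06, -0.02 and 0.01. In RNA from whole cultures, fewer cells in mitosis and less of a transcript per cell cannot be told apart.

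KIF18B and KIF20A had the smallest p-values of the class. KIF18B, which limits the length of the astral microtubules of the spindle, was at 1.89, 1.70 and 3.09 FPKM after SP1, SP3 and double siRNA, against 12.1 and 10.2 FPKM in the controls. All 3 knockdown libraries lay far below both controls, and the double knockdown was the highest of the 3. Its level came to 16.9%, 15.2% and 27.7% of the control mean, with 95% Poisson intervals of 14.2 to 19.97%, 12.7 to 18.1% and 24.0 to 31.8%, which cover counting error only. The log2 difference was -2.07 ± 0.12 (SE) after SP1 siRNA, -2.17 ± 0.12 after SP3 siRNA and -1.57 ± 0.12 in the double knockdown (limma adjusted p = 1.31e-09, 9.81e-10 and 2.8e-08). KIF20A, which brings the Aurora B complex to the central spindle, was at 2.23, 1.53 and 2.55 FPKM after SP1, SP3 and double siRNA, against 14.1 and 10.8 FPKM in the controls. The knockdown libraries again did not overlap the controls. Its log2 differences were -2.04 ± 0.13, -2.40 ± 0.13 and -1.91 ± 0.13 (limma adjusted p = 4.61e-09, 1.07e-09 and 1.1e-08).

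KIF4A, a chromatin-binding kinesin that works with PRC1 on the central spindle, was at 0.767, 1.34 and 1.47 FPKM after SP1, SP3 and double siRNA, against 6.35 and 5.24 FPKM in the controls. Its level after SP1 siRNA, 13.2% of the control mean (interval 9.84 to 17.5%), was the lowest of any tested KIF gene in that library. KIF4B, a near-identical retrogene copy, was listed at no more than 0.117 FPKM in any library, and reads shared between the copies cannot be told apart. KIF23, the motor of the centralspindlin complex, was at 5.03, 5.26 and 7.30 FPKM after SP1, SP3 and double siRNA, against 15.5 and 13.5 FPKM in the controls. KIF20B, which acts late in cell division, was at 1.40, 1.25 and 1.71 FPKM after SP1, SP3 and double siRNA, against 3.07 and 2.10 FPKM in the controls. KIF14, which acts with citron kinase at the midbody, was at 0.925, 1.26 and 1.24 FPKM in the same order of knockdowns, against 3.45 and 2.53 FPKM in the controls. All 4 division-stage motors were lower in every knockdown library than in either control. The share of all genes in that order was not counted, so nothing is read from this count. The call of KIF20B in the double knockdown (adjusted p = 0.0373) was lost under both other scalings, without the variance trend and with a pseudocount of 0.1, and its call after SP1 siRNA was lost under upper-quartile scaling.

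The spindle motors showed the same direction with different depth. KIF11, which slides spindle microtubules apart, was at 2.82, 1.59 and 2.71 FPKM after SP1, SP3 and double siRNA, against 8.01 and 6.44 FPKM in the controls. KIF15, which can back up KIF11 in holding the spindle bipolar, was at 1.11, 0.598 and 0.957 FPKM after SP1, SP3 and double siRNA, against 2.73 and 2.54 FPKM in the controls. KIF11 and KIF15 were the 2 mitotic members called lower after SP3 than after SP1 siRNA, with log2 differences of -0.56 ± 0.15 and -0.40 ± 0.15 (limma adjusted p = 0.00382 and 0.0301). KIF4A and KIF18A went the other way, at 0.40 ± 0.15 and 0.36 ± 0.13 (limma adjusted p = 0.0307 and 0.0283), calls that were lost under upper-quartile scaling. The other 7 were not called between SP3 and SP1 siRNA, in a comparison that called 26.5% of all genes higher and 36.2% lower, 62.7% in all. KIF2C, which shortens microtubules at centromeres, was at 5.89, 6.41 and 10.2 FPKM after SP1, SP3 and double siRNA, against 21.7 and 17.3 FPKM in the controls. KIF22, which pushes chromosome arms, was at 14.2, 14.4 and 19.3 FPKM after SP1, SP3 and double siRNA, against 26.5 and 24.3 FPKM in the controls. KIF22 kept the largest level of the class in all 5 libraries, and 13.0% of its annotated exon bases overlap a gene on the opposite strand, so part of its reads may belong to that gene.

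KIF18A, which damps the movement of chromosomes at metaphase, differed from the rest of the class in the double knockdown. It was at 4.26, 5.74 and 7.24 FPKM after SP1, SP3 and double siRNA, against 8.75 and 7.15 FPKM in the controls. The double knockdown value lay between the controls, at 91.1% of their mean (interval 81.4 to 102%), while both other knockdown libraries lay below them. The log2 difference was -0.76 ± 0.11 after SP1 siRNA and -0.40 ± 0.11 after SP3 siRNA (limma adjusted p = 3.34e-05 and 0.00656), and -0.11 ± 0.11 in the double knockdown (adjusted p = 0.403). Set directly against SP1 siRNA, the double knockdown was higher by 0.65 ± 0.13 (limma adjusted p = 0.00101).

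**Figure D2:**
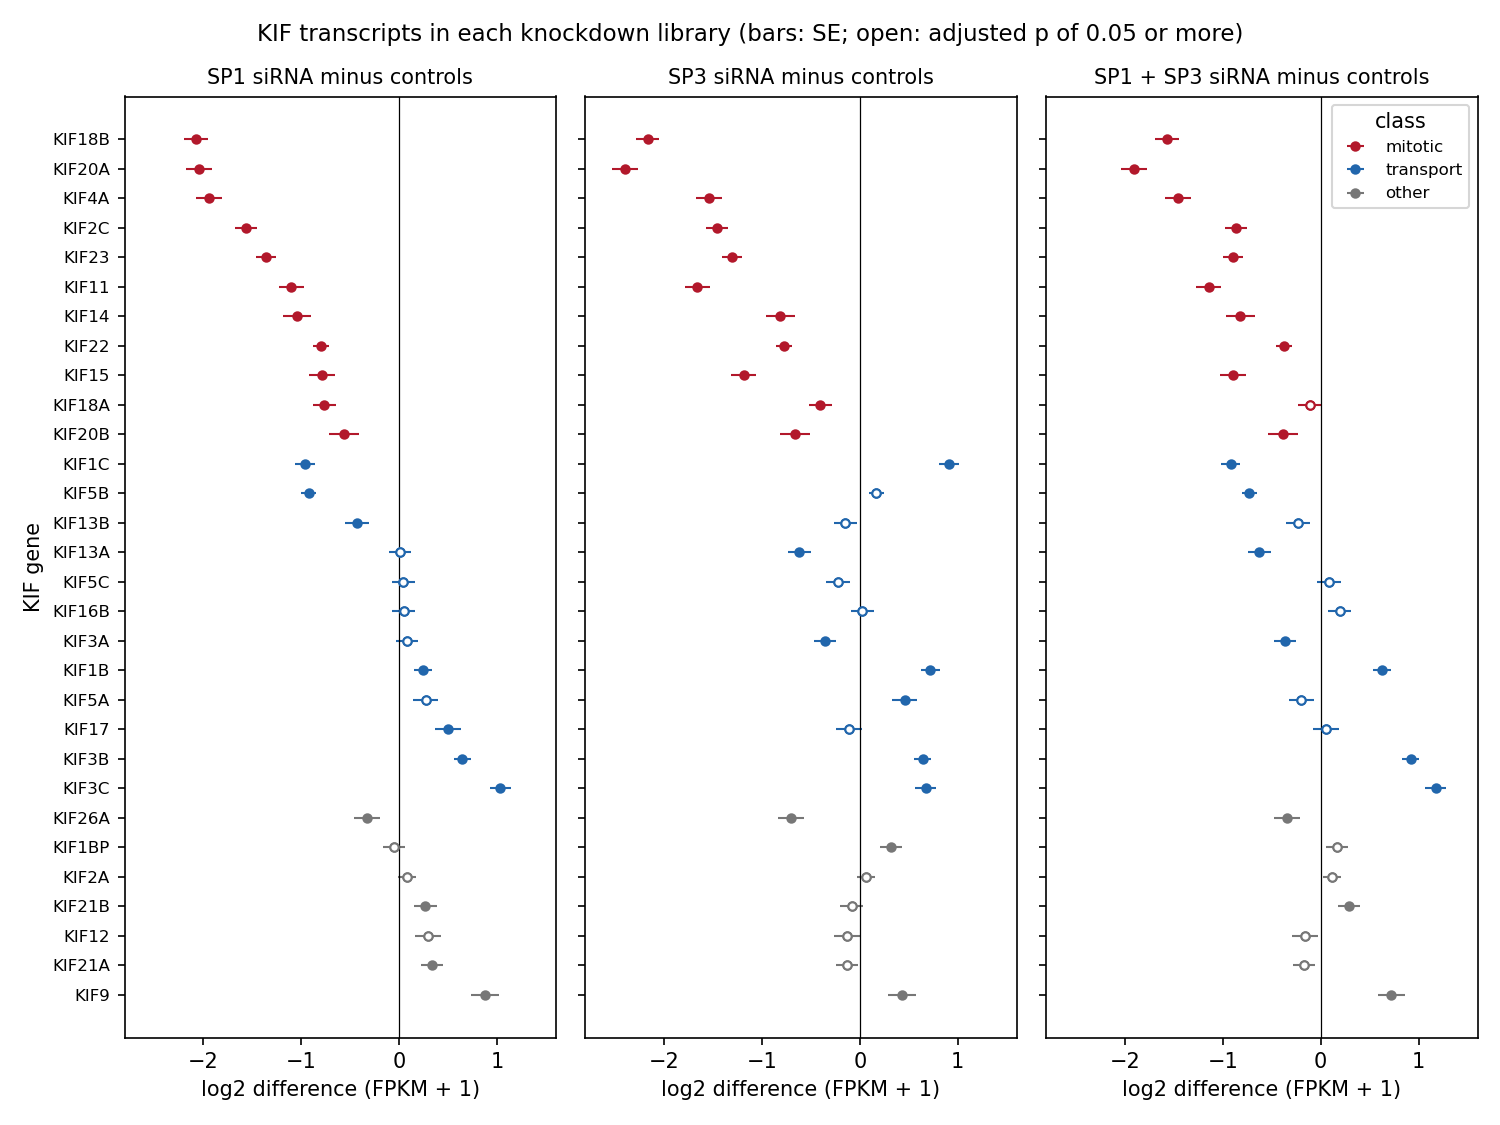
Log2 difference in FPKM + 1 from the control mean (horizontal axis) for the 30 tested KIF genes (vertical axis), 1 panel per knockdown, with bars of 1 SE from limma and open points where the adjusted p was 0.05 or more. All 11 mitotic genes stand left of 0 in every panel, while transport genes spread to both sides, KIF9 (grey) was tested only because of its knockdown levels, and KIF1C is at -0.96, 0.91 and -0.92.

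Control 1 and control 2 also differed in this class. All 11 tested mitotic members were lower in control 2 than in control 1, with a median difference of -0.26 (range -0.40 to -0.08), against 0.01 for the transport class and -0.03 for all genes tested. With control 1 left out the mitotic medians were -0.96, -1.21 and -0.80 after SP1, SP3 and double siRNA, and with control 2 left out they were -1.24, -1.39 and -0.99. The mitotic calls rest on 1 residual degree of freedom from the controls and 13.98 from a prior fitted over all genes tested. Since these members shifted together between the controls, their SE and p-values may claim more precision than they have. When the departure of the double knockdown from the sum of single ones was counted as spread, 0 of 11 were called in each knockdown. That fit called only 7.67%, 15.4% and 16.8% of all genes, so the count of 0 is not read as particular to the class. The mitotic medians were then -0.60, -0.55 and -1.15. With no filter on low values, 6, 2 and 2 mitotic members were called after SP1, SP3 and double siRNA. Of all 17125 genes above 0, 4180, 2106 and 3157 were then called.

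Promoters are shown for the 2 mitotic members with the smallest p-values and for KIF18A, which departed from its class in the double knockdown. Each is the 250 bases before the start in RefSeq, GRCh38.p14, printed 5′ to 3′ on the gene's strand: chr17:44947774-44948023 on the minus strand for KIF18B, chr5:138178862-138179111 on the plus strand for KIF20A and chr11:28108157-28108406 on the minus strand for KIF18A. Capitals mark, on either strand, the GC box GGGCGG, the CCAAT box CCAAT, and the letters TTTGAA or TTCGAA of the cell cycle homology region (CHR), an element bound by the complex that times late cell cycle genes.
KIF18B: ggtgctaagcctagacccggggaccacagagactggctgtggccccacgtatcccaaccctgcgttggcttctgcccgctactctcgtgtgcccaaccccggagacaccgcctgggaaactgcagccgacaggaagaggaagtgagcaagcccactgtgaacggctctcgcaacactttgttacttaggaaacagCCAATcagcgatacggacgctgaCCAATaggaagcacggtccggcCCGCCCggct
KIF20A: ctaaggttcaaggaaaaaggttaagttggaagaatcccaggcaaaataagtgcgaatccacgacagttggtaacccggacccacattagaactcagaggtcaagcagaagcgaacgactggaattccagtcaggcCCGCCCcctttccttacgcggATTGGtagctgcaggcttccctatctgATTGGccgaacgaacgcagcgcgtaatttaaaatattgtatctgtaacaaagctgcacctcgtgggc
KIF18A: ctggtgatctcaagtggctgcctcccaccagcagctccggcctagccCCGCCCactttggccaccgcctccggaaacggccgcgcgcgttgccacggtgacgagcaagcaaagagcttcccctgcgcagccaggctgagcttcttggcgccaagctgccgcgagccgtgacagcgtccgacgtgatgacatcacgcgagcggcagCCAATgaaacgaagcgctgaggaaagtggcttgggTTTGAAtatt
KIF18B holds CCAAT boxes that begin 55 and 32 bases before the start and a GC box that begins 10 bases before it. KIF20A holds its CCAAT boxes 94 and 67 bases before the start, with a GC box at 115. KIF18A holds 1 GC box at 203, 1 CCAAT box at 45 and 1 CHR match at 10 bases before the start.

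Over the mitotic class, 14 promoter windows of 13 genes were matched. The GC box letters were in 85.7% of these windows, CCAAT in 71.4% and the CHR letters in 50%. Transport windows, 16 for 11 genes, held them in 75.0%, 31.2% and 6.25%, and all 35116 promoters of the table in 42.6%, 32.0% and 14.3%. Over the whole 300-base windows the CHR share was 78.6% for mitotic, 6.25% for transport and 16.4% for all promoters. Of the 3 mitotic windows printed above, only that of KIF18A holds all 3 kinds of letters before the start. Windows of KIF4A, KIF11 and KIF22, called lower in every knockdown, also hold all 3 kinds there. Any link between these letters and the calls was not tested. Over its whole 300-base window KIF18B holds CHR letters too. In all, 3 matches in the KIF windows overlapped another, and such matches are letters in a window, not shown to be bound.

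The transport kinesins did not move as a class. After SP1 siRNA 3 of 12 tested members were called lower and 4 higher, after SP3 siRNA 2 lower and 5 higher, and in the double knockdown 4 lower and 3 higher. All genes tested were called higher at 36.5%, 29.6% and 31.9% in these comparisons, beside the shares called lower given above. The class medians were 0.07 after SP1 siRNA (range -0.96 to 1.04), 0.10 after SP3 siRNA (range -0.62 to 0.91) and -0.07 in the double knockdown (range -0.92 to 1.17). Control 2 minus control 1 ran from -0.11 to 0.08 for these genes.

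KIF1C, which carries vesicles and integrins in migrating cells, moved in opposite directions in the 2 single knockdowns. It was at 3.56, 15.6 and 3.68 FPKM after SP1, SP3 and double siRNA, against 7.60 and 8.10 FPKM in the controls. The SP1 and double knockdown libraries lay close together below both controls, and the SP3 library lay above both. These levels were 45.3% (interval 40.7 to 50.3%), 199% (187 to 212%) and 46.8% (42.1 to 52.0%) of the control mean. The log2 differences were -0.96 ± 0.10, 0.91 ± 0.10 and -0.92 ± 0.10 (limma adjusted p = 7.49e-07, 1.46e-06 and 1.2e-06). Compared directly, SP3 siRNA exceeded SP1 siRNA by 1.87 ± 0.12 (limma adjusted p = 3.72e-09). The double knockdown was below SP3 siRNA by a log2 difference of -1.83 ± 0.12 (limma adjusted p = 6.4e-08) and differed from SP1 siRNA by 0.04 ± 0.12 (adjusted p = 0.809).

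KIF5B, the widely expressed conventional kinesin heavy chain, was lower in both libraries that received SP1 siRNA. It was at 16.7, 36.7 and 19.2 FPKM after SP1, SP3 and double siRNA, against 33.7 and 31.5 FPKM in the controls. Its log2 differences from the controls were -0.92 ± 0.07, 0.17 ± 0.07 and -0.73 ± 0.07 (limma adjusted p = 5.19e-08, 0.0628 and 6.82e-07). SP3 siRNA exceeded SP1 siRNA by 1.09 ± 0.09 (limma adjusted p = 5.34e-08). The related heavy chains had low levels: KIF5A was at 2.39, 2.86 and 1.45 FPKM after SP1, SP3 and double siRNA, against 1.88 and 1.74 FPKM in the controls. KIF5A was called higher after SP3 siRNA, at 0.46 ± 0.13 (limma adjusted p = 0.00495), but not after SP1 siRNA or in the double knockdown. KIF5C lay between 2.23 and 2.995 FPKM in all libraries and was called in no comparison with the controls.

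The heterotrimeric kinesins, which serve cilia and endosomes, split by subunit. KIF3C was at 6.90, 5.15 and 7.68 FPKM after SP1, SP3 and double siRNA, against 2.80 and 2.90 FPKM in the controls, so that every knockdown library was above both controls. It stood at 242%, 180% and 269% of the control mean, with log2 differences of 1.04 ± 0.11, 0.67 ± 0.11 and 1.17 ± 0.11 (limma adjusted p = 6.46e-07, 5.77e-05 and 1.77e-07). KIF3B was at 15.1, 15.1 and 18.5 FPKM after SP1, SP3 and double siRNA, against 9.73 and 8.94 FPKM in the controls. KIF3B was called higher in all 3, by 0.64, 0.64 and 0.92 on the log2 scale (SE 0.09 each). KIF3A, the usual partner of KIF3B, was at 4.43, 2.996 and 2.979 FPKM after SP1, SP3 and double siRNA, against 4.02 and 4.21 FPKM in the controls. KIF3A was thus lower where SP3 siRNA was given, with a log2 difference of -0.36 ± 0.11 in each of these 2 libraries (limma adjusted p = 0.0125 and 0.0111), and was not called after SP1 siRNA alone. KIF17, a homodimeric relative, was at 1.94, 0.932 and 1.16 FPKM after SP1, SP3 and double siRNA, against 1.03 and 1.14 FPKM in the controls, and was called higher after SP1 siRNA (limma adjusted p = 0.00398) and in neither of the other 2 comparisons with the controls.

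Among the motors of vesicles and endosomes, KIF13A and KIF1B followed SP3 siRNA. KIF13A, which carries recycling endosomes, was at 4.04, 2.27 and 2.24 FPKM after SP1, SP3 and double siRNA, against 3.99 and 4.03 FPKM in the controls. Both libraries that received SP3 siRNA lay below the other 3, with log2 differences of -0.62 ± 0.12 and -0.63 ± 0.12 (limma adjusted p = 0.000262 and 0.000216). KIF1B, which carries mitochondria and synaptic vesicle precursors, was at 7.95, 11.5 and 10.7 FPKM after SP1, SP3 and double siRNA, against 6.47 and 6.65 FPKM in the controls. KIF1B rose by 0.72 ± 0.09 after SP3 siRNA and 0.63 ± 0.09 in the double knockdown (limma adjusted p = 8.01e-06 and 2.97e-05). Its smaller difference after SP1 siRNA, 0.24 ± 0.09 (adjusted p = 0.0315), lost its call under both other scalings. KIF13B was at 1.95, 2.58 and 2.38 FPKM after SP1, SP3 and double siRNA, against 3.03 and 2.90 FPKM in the controls, and was called lower after SP1 siRNA (limma adjusted p = 0.00566). KIF16B, a motor of early endosomes, lay between 2.40 and 2.91 FPKM and was called in none of the 3. KIF1A, a neuronal relative, stayed under 1 FPKM everywhere and was not tested.

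**Figure D3:**
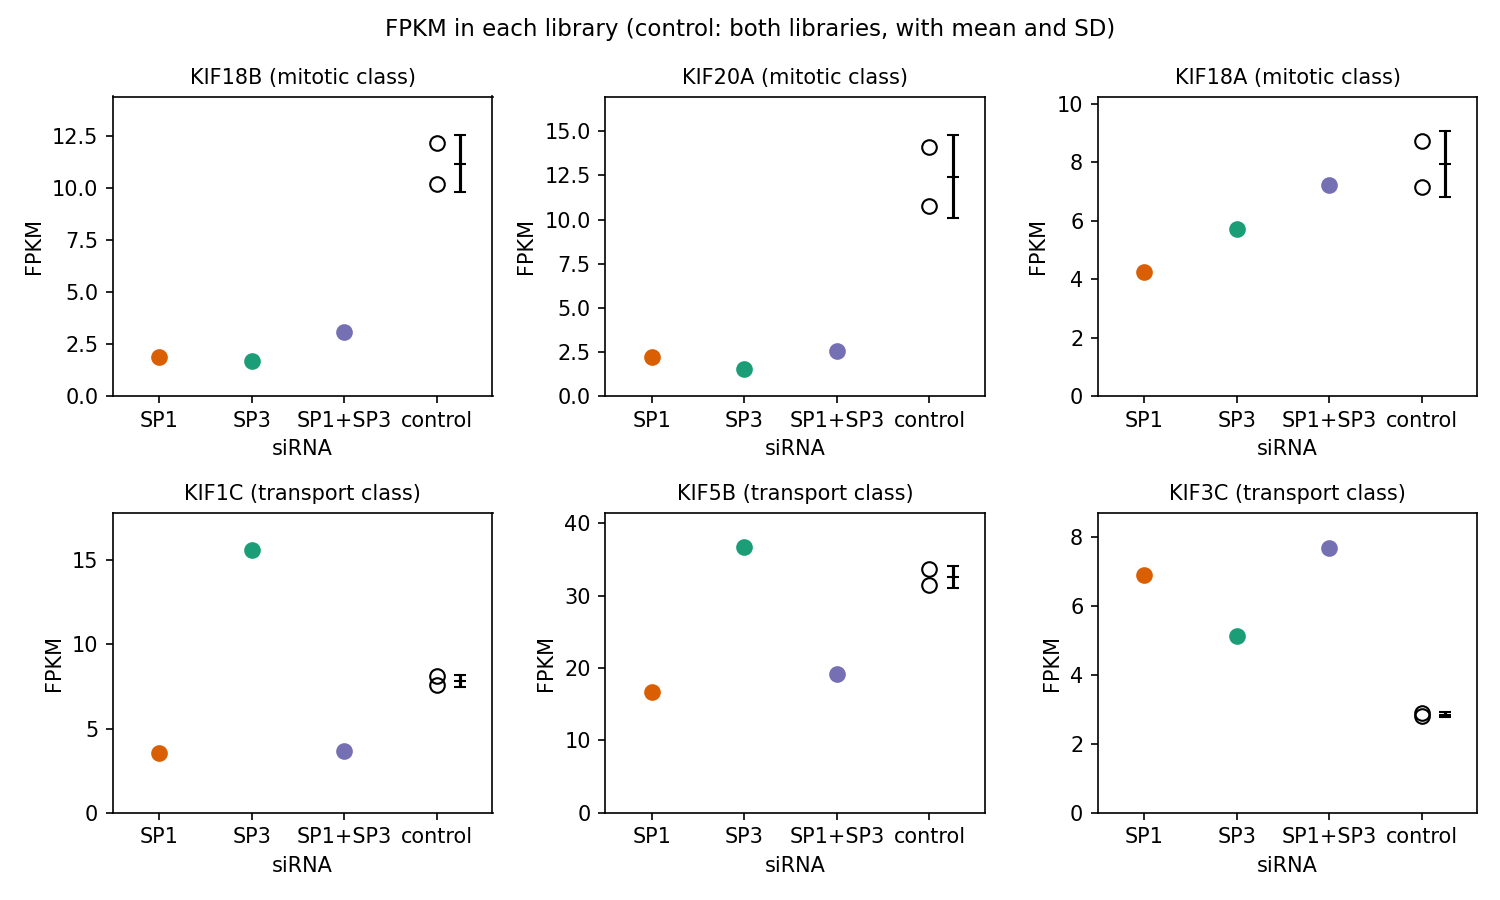
FPKM (vertical axis, from 0) of 3 mitotic and 3 transport kinesins in each library (horizontal axis), with both controls as open points beside their mean and SD (n = 2). KIF18B and KIF20A sit below the controls in every knockdown, KIF1C is at 15.6 FPKM after SP3 siRNA alone, and KIF3C is above the controls in all 3 knockdowns.

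With the departure of the double knockdown counted as spread, KIF1C, KIF5B (lower) and KIF3C (higher) were called after SP1 siRNA. After SP3 siRNA, KIF13A (lower) and KIF1B (higher) were called. That fit called 7.67%, 15.4% and 16.8% of all genes after SP1, SP3 and double siRNA. In the double knockdown KIF5B and KIF13A (lower) and KIF1B, KIF3B and KIF3C (higher) were then called, so that KIF1C lost its call there and after SP3 siRNA (adjusted p = 0.098 and 0.137).

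Promoters are shown for the 2 transport members with the smallest p-values, KIF5B and KIF3C, and for KIF1C, which moved in opposite directions in the 2 single knockdowns. The same source, build and capitals apply, at chr10:32056426-32056675 on the minus strand for KIF5B, chr2:25982498-25982747 on the minus strand for KIF3C and chr17:4997700-4997949 on the plus strand for KIF1C.
KIF5B: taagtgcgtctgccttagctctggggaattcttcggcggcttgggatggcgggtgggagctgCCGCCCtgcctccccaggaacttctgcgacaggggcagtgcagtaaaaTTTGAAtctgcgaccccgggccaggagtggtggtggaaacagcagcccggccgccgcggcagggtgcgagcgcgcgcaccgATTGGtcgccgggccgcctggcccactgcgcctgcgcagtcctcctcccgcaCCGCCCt
KIF3C: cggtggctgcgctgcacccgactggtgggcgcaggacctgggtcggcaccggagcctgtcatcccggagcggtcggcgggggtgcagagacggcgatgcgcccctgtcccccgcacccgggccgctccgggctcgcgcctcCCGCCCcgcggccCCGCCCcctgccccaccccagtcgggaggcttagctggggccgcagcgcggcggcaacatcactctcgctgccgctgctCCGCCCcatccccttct
KIF1C: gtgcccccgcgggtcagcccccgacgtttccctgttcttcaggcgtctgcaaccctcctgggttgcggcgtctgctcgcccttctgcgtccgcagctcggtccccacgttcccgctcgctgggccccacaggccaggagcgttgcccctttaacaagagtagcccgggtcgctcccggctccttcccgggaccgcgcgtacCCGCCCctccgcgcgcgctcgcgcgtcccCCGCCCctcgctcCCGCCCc
KIF1C and KIF3C each hold 3 GC boxes and no CCAAT or CHR letters in these windows. KIF1C has its GC boxes at 49, 20 and 7 bases before the start, and KIF3C has them at 109, 96 and 17. KIF5B holds 2 GC boxes, at 188 and 7, with 1 CHR match at 140 and 1 CCAAT box at 59. GC box letters are in 75.0% of transport, 85.7% of mitotic and 91.7% of other KIF windows, against 42.6% of all promoters. Any link between these letters and the direction of a call was not tested.

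Of the 7 other tested members, KIF9 is described by its levels alone, for the reason given below. Of the remaining 6, after SP1 siRNA 1 was called lower and 2 higher, after SP3 siRNA 1 lower and 1 higher, and in the double knockdown 1 lower and 1 higher. Of all genes tested, 65.4%, 61.6% and 63.0% were called in either direction in these comparisons, so the shares of these members do not exceed those of all genes. KIF9, a kinesin of motile cilia, was at 1.41, 0.768 and 1.17 FPKM after SP1, SP3 and double siRNA, against 0.375 and 0.257 FPKM in the controls. KIF9 reached 1 FPKM only in the knockdown libraries where it was high, so it had to differ and no p is given for it here. All 3 knockdown libraries lay above both controls, and 14.9% of its exon bases overlap the antisense gene KIF9-AS1. KIF26A, which lacks motor activity, was at 1.81, 1.17 and 1.78 FPKM after SP1, SP3 and double siRNA, against 2.31 and 2.76 FPKM in the controls, and was called lower in each. Its calls after SP1 and double siRNA were lost under upper-quartile scaling, while that after SP3 siRNA, -0.70 ± 0.13 (limma adjusted p = 0.000264), was kept.

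KIF2A, a microtubule-shortening relative of the mitotic KIF2C, was at 9.66, 9.50 and 9.93 FPKM after SP1, SP3 and double siRNA, against 9.37 and 8.81 FPKM in the controls, and was called in none of the 7 comparisons. Sorted into the mitotic class, KIF2A would be a member that did not move. The mitotic medians would then be -1.07, -1.25 and -0.88, and 1.41 for the departure from additivity. KIF21A and KIF21B, which slow microtubule growth, were called higher after SP1 siRNA, at 0.34 ± 0.11 and 0.27 ± 0.11 (limma adjusted p = 0.0147 and 0.0489). KIF21B was also called higher in the double knockdown (adjusted p = 0.038), and these 3 calls of KIF21A and KIF21B were lost under upper-quartile scaling. KIF12 lay between 2.12 and 3.31 FPKM and was not called against the controls. KIF1BP, which encodes a kinesin-binding protein and is no motor, was called higher after SP3 siRNA (0.32 ± 0.11, limma adjusted p = 0.0224), at 4.70 FPKM against 3.65 and 3.52 FPKM in the controls. Between SP3 and SP1 siRNA 4 of these 6 were called lower, namely KIF12, KIF21A, KIF21B and KIF26A, and KIF1BP was called higher. That comparison called 36.2% of all genes lower and 26.5% higher, 62.7% in all.

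The double knockdown was next set against the single ones, the comparison that asks what the second siRNA adds. Against SP1 siRNA, 6 of 11 mitotic members were higher and none lower, where 21.0% of all genes were called higher and 26.4% lower, 47.5% in all. These 6 were KIF2C, KIF4A, KIF18A, KIF18B, KIF22 and KIF23, and the largest difference was 0.70 ± 0.13 for KIF2C (limma adjusted p = 0.000433). Against SP3 siRNA, 6 of 11 were higher and none lower as well, where 17.9% of all genes were called higher and 15.1% lower, 33.0% in all. These were KIF2C, KIF11, KIF18B, KIF20A, KIF22 and KIF23, led by KIF18B at 0.60 ± 0.14 (limma adjusted p = 0.00395), and 2 of them were left under upper-quartile scaling. As plain levels, 8 of 11 mitotic members were higher in the double knockdown than in both single knockdowns, and none was lower than both. Of 12 transport members, 4 were higher than both and 3 lower than both. The share of all genes in either order was not counted, so nothing is read from these counts. The comparisons with SP1 and with SP3 siRNA use the same double knockdown library, and the other 2 libraries are also unreplicated.

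Transport members split in these comparisons. Against SP1 siRNA the double knockdown was lower for KIF3A, KIF5A, KIF13A and KIF17 and higher for KIF1B and KIF3B. Against SP3 siRNA it was lower for KIF1C, KIF5A and KIF5B and higher for KIF3B and KIF3C. KIF5B differed from SP3 siRNA by -0.90 ± 0.09 on the log2 scale (limma adjusted p = 3.2e-06), while its difference from SP1 siRNA, 0.19 ± 0.09, was not called (adjusted p = 0.082). KIF5A was lowest in the double knockdown, at 1.45 FPKM, against 2.39 FPKM after SP1 and 2.86 FPKM after SP3 siRNA. The KIF3B calls in both comparisons were lost under upper-quartile scaling.

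The departure from additivity, the log2 difference of the double knockdown with those of both single knockdowns taken off, was then described class by class. All 11 tested mitotic members had a called positive departure, with a median of 1.62 (range 0.83 to 2.67), where 18.5% of all genes had one and the median of all genes was -0.03. KIF18B had the largest, 2.67 ± 0.18 (limma adjusted p = 7.93e-08), and KIF20A followed at 2.53 ± 0.20 (limma adjusted p = 3.17e-07). A positive departure here means that the double knockdown level was higher than the sum of the single log2 differences would give. Values of log2(FPKM + 1) cannot fall below 0, which limits how far the double knockdown could fall. For KIF18B, KIF20A, KIF4A and KIF15 the single differences together exceed the whole control level on this scale. Their departure therefore had to be positive whatever the double knockdown level. For KIF11 and KIF14 the single differences nearly reach the control level, which left little room for a negative departure. The count of 11 is thus partly fixed by the scale, and no contrast with the transport class is read from it. With a pseudocount of 0.1 in place of 1 the mitotic median was 1.97, and without control 1 or without control 2 it was 1.48 and 1.76. Under upper-quartile scaling the departure of KIF20B was not called, and with no filter on low values 0 genes were called for this departure, mitotic members included.

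In the transport class 4 of 12 members had a called negative departure and none a called positive one, where 21.0% of all genes had a negative one and 39.5% had either. These were KIF5A at -0.93 ± 0.19, KIF1C at -0.87 ± 0.15, KIF3C at -0.54 ± 0.16 and KIF3B at -0.37 ± 0.13, the last of which was not called under either other scaling or without the variance trend. KIF5B and KIF13A, each lowered by 1 siRNA only, had departures of 0.02 ± 0.12 and -0.02 ± 0.18 that were not called. Among the other members KIF26A had 0.69 ± 0.20 (limma adjusted p = 0.0131), a call that was lost under upper-quartile scaling.

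**Figure D4:**
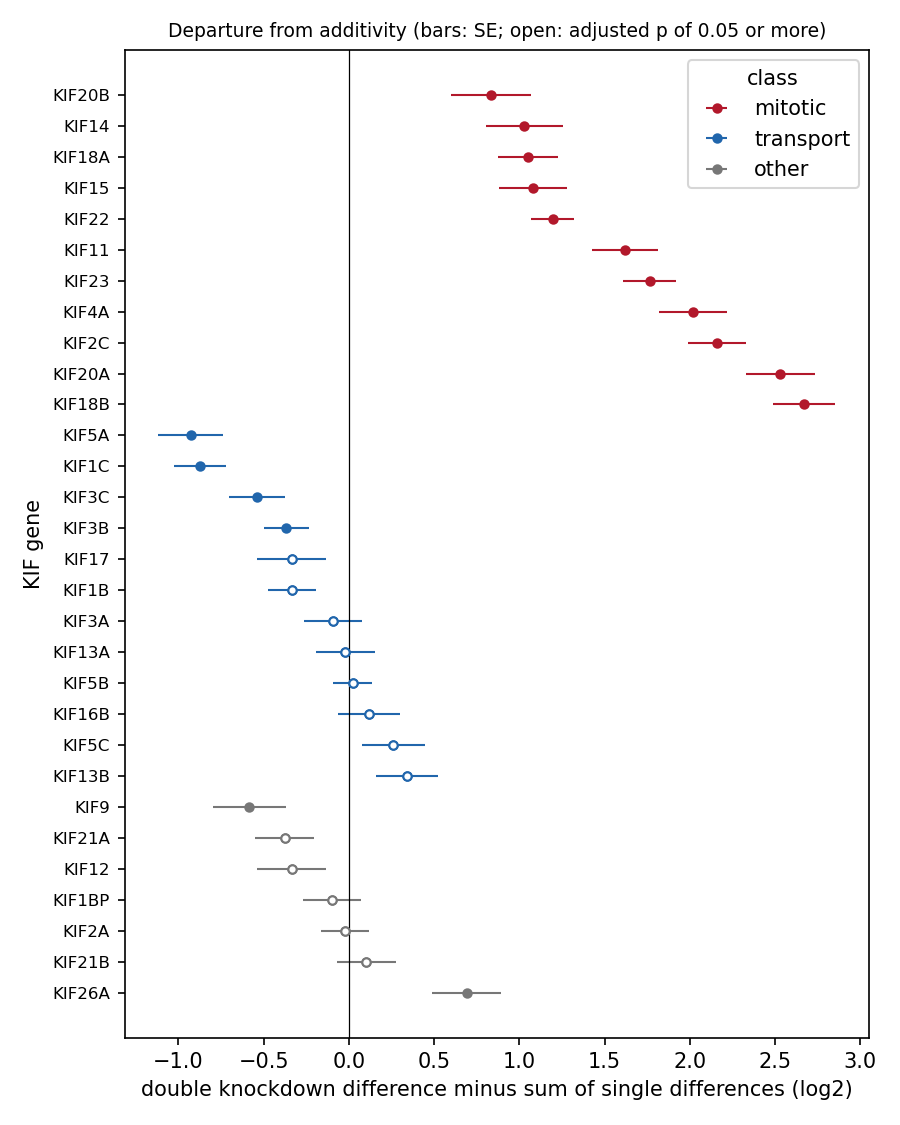
Departure of the double knockdown from the sum of the single log2 differences (horizontal axis) for the 30 tested KIF genes (vertical axis), with bars of 1 SE from limma and open points where the adjusted p was 0.05 or more. The 11 mitotic genes run from 0.83 for KIF20B to 2.67 for KIF18B, all right of 0, and the 4 filled transport points lie left of 0.

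Genes that work with the motors were described from lists of known roles. Among kinesins with other symbols, KIFC1, which clusters extra centrosomes and pulls toward spindle poles, was at 7.59, 8.53 and 13.0 FPKM after SP1, SP3 and double siRNA, against 19.5 and 17.5 FPKM in the controls. KIFC1 was called lower in each knockdown, with log2 differences of -1.18, -1.03 and -0.48, and its departure from additivity was 1.73. CENPE, the kinetochore motor, was at 1.72, 2.42 and 2.21 FPKM after SP1, SP3 and double siRNA, against 4.09 and 2.39 FPKM in the controls, which differed widely, and was called lower after SP1 siRNA (limma adjusted p = 0.00672) but not after SP3 or double siRNA. KIFC2 was at 35.6, 18.7 and 30.3 FPKM after SP1, SP3 and double siRNA, against 18.1 and 17.8 FPKM in the controls, and was higher in both libraries that received SP1 siRNA. KIFC3 was at 7.84, 12.0 and 11.8 FPKM after SP1, SP3 and double siRNA, against 6.48 and 7.25 FPKM in the controls, and was called higher where SP3 siRNA was given.

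Of 25 partners and regulators of the mitotic kinesins, 20 were called lower and 2 higher after SP1 siRNA, 20 lower and 4 higher after SP3 siRNA, and 15 lower and 2 higher in the double knockdown. Of all genes, 28.8%, 32.1% and 31.1% were called lower and 36.5%, 29.6% and 31.9% higher. The median differences of the 25 were -0.83, -0.64 and -0.42, and those of all genes 0.06, -0.02 and 0.01. RACGAP1, the centralspindlin partner of KIF23, was at 7.12, 12.4 and 10.6 FPKM after SP1, SP3 and double siRNA, against 21.2 and 21.0 FPKM in the controls. AURKB, the kinase that KIF20A brings to the central spindle, was at 7.91, 6.93 and 11.8 FPKM after SP1, SP3 and double siRNA, against 22.4 and 21.1 FPKM in the controls. Both were lower in every knockdown library than in either control, an order whose share over all genes was not counted. FOXM1, a transcription factor of late cell cycle genes, was at 5.04, 2.41 and 4.98 FPKM after SP1, SP3 and double siRNA, against 11.1 and 10.5 FPKM in the controls. PLK1, a mitotic kinase, was at 7.41, 5.47 and 7.48 FPKM after SP1, SP3 and double siRNA, against 24.4 and 20.03 FPKM in the controls. All 4 were called lower in each knockdown, and they are named because their p-values were the smallest of the 25. The partner MAPRE1 went the other way, at 51.4, 31.1 and 34.3 FPKM after SP1, SP3 and double siRNA, against 24.4 and 24.0 FPKM in the controls. MAPRE1 and AURKC were called higher in each knockdown, and MYBL2 was called lower only after SP3 siRNA. Departures from additivity were called positive for 20 of the 25 and negative for 1, where 18.5% of all genes had a positive and 21.0% a negative one.

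Of 19 light chains, adaptors and binding proteins of transport kinesins, 18 were measured. Of these, 3 were called lower and 7 higher after SP1 siRNA, 2 lower and 10 higher after SP3 siRNA, and 4 lower and 5 higher in the double knockdown. Of all genes, 28.8%, 32.1% and 31.1% were called lower and 36.5%, 29.6% and 31.9% higher in these comparisons. In either direction 65.4%, 61.6% and 63.0% of all genes were called, which is near or above the shares of the list. After SP3 siRNA the calls of the list leaned to higher levels, unlike those of all genes. KLC2, a light chain of conventional kinesin, was at 5.93, 20.9 and 8.08 FPKM after SP1, SP3 and double siRNA, against 10.7 and 11.1 FPKM in the controls. Like KIF1C it was called lower in both libraries that received SP1 siRNA and higher after SP3 siRNA alone, with log2 differences of -0.78, 0.88 and -0.39. KLC1, its relative, was at 33.9, 55.4 and 41.8 FPKM after SP1, SP3 and double siRNA, against 28.4 and 26.1 FPKM in the controls, and was called higher in each. KIFAP3, which joins KIF3A and KIF3B into a trimer, was at 6.06, 10.7 and 11.3 FPKM after SP1, SP3 and double siRNA, against 4.77 and 4.89 FPKM in the controls. KIFAP3 rose by 0.28, 1.01 and 1.08 on the log2 scale. MAPK8IP2, a scaffold that binds light chains, was at 2.69, 4.11 and 4.79 FPKM after SP1, SP3 and double siRNA, against 1.48 and 1.38 FPKM in the controls, and was called higher in each.

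Cytoplasmic dynein and its activator dynactin drive traffic in the opposite direction along microtubules. Of 28 listed genes 26 were tested: 11 were called lower and 8 higher after SP1 siRNA, 0 lower and 19 higher after SP3 siRNA, and 4 lower and 14 higher in the double knockdown. Of all genes, 28.8% were called lower and 36.5% higher after SP1 siRNA, 32.1% lower and 29.6% higher after SP3 siRNA, and 31.1% lower and 31.9% higher in the double knockdown. DYNC1LI1, a dynein light intermediate chain, was at 3.80, 14.0 and 5.15 FPKM after SP1, SP3 and double siRNA, against 13.1 and 12.7 FPKM in the controls. Its log2 differences were -1.54, 0.11 and -1.18, called in the 2 libraries that received SP1 siRNA. DYNLL2, a dynein light chain, was at 25.1, 56.9 and 45.2 FPKM after SP1, SP3 and double siRNA, against 48.2 and 48.9 FPKM in the controls. The dynactin subunits DCTN6 and DCTN2 were called higher in each knockdown, by 0.51, 0.94 and 0.76 for DCTN6 and by 0.58, 0.67 and 0.76 for DCTN2 on the log2 scale. In the SP3 siRNA library, where none of the 26 was called lower, all 11 tested mitotic kinesins were.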

How the data were processed

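RNA-seq of HCT116 cells was measured in 5 libraries. The authors deposited 1 table per library with gene symbols and FPKM. The tools were HTSeq 0.9.1, Cufflinks 2.2.1, HISAT2 2.0.5 and Trimmomatic 0.36, per the submitters' processing notes, which state no order. The genome build and annotation were not given in the sources used here. FPKM values were used as deposited, and limma 3.58.1 (R 4.3.3, empirical Bayes with trend) was fitted to log2(FPKM + 1) of the 11728 genes that reached 1 FPKM in any library. That scale understates the change of low genes. The model held 1 mean per group; the 2 controls supply its 1 residual degree of freedom and the prior adds 13.98, so knockdown libraries are assumed to vary like the controls. The labels do not say whether the controls came from separate cultures, and p-values then measure only the spread between these samples, possibly a technical one. There were 7 comparisons: SP1, SP3 and double siRNA against control, double siRNA against SP1 and against SP3 siRNA, SP3 against SP1 siRNA, and the departure from additivity.

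Whole reads could be recovered from the FPKM values for 99.87% of 17125 symbols above 0 (tolerance 0.02 reads; 0.0% of 500 symbols jittered by an SD of 1%). They summed to 99.11 to 99.22% of the library denominators and gave the 95% Poisson intervals, which cover counting error only. A limma voom test on these reads, added after seeing the data, called 4371 genes higher and 3366 lower after SP1 siRNA, 3579 higher and 3806 lower after SP3 siRNA, and 3737 higher and 3629 lower in the double knockdown. The fit was tested on simulated data, with genes varying independently and changes in the SP1 siRNA library only. That simulation holds no joint shift of members between the controls, so it does not cover the shift described above.

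Every KIF gene is accounted for; related genes come from fixed lists, with the smallest p-values named. The members, classes and lists were chosen with earlier results of these data known. Exon overlaps are from GENCODE 29 and promoters from RefSeq GRCh38.p14, with 42 windows for 33 KIF genes. Alternatives were other pseudocounts, filters, scalings, no trend, an additive model, leaving out a control and a wider mitotic class.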

Additional observations from a re-analysis of the deposited data

Results flagged for a closer look

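The effect of SP3 siRNA differed with and without SP1 siRNA for 17 KIF genes, by limma's interaction term at an adjusted p under 0.05, which 39.5% of all genes passed. The departure was positive for all 11 tested mitotic members, at 2.67 for KIF18B, 2.53 for KIF20A, 2.16 for KIF2C, 2.02 for KIF4A, 1.76 for KIF23, 1.62 for KIF11, 1.19 for KIF22, 1.08 for KIF15, 1.05 for KIF18A, 1.03 for KIF14 and 0.83 for KIF20B on the log2 scale. For KIF18B, KIF20A, KIF4A and KIF15 it had to be positive, because of the floor of the scale described above. The same floor left KIF11 and KIF14 little room for a negative departure. The departure was also positive for KIF26A, at 0.69. It was negative for the transport members KIF5A (-0.93), KIF1C (-0.87), KIF3C (-0.54) and KIF3B (-0.37), and for KIF9 (-0.58), which was tested only because of its levels in the knockdown libraries. Each value rests on 1 double knockdown library, 1 library per single knockdown and 2 controls. No group had the 4 libraries needed to look for a single outlying one.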

How the results depend on the processing

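No paired analysis was possible because the knockdown groups have 1 library each and share only 1 replicate number with the controls. Values below run in the order SP1 siRNA, SP3 siRNA and double knockdown, each against the controls, unless named. Every called KIF difference and the mitotic medians kept their direction without control 1 and without control 2, which leave no test. Uncalled differences changed sign without control 1 for KIF12 after SP3 siRNA (0.0031), KIF18A in the double knockdown (0.016) and the departure of KIF5B (-0.025), and without control 2 for KIF5C after SP1 siRNA (-0.0099) and the departure of KIF2A (0.018). The transport medians then ranged from 0.081 to 0.086, from 0.078 to 0.12 and from -0.10 to -0.071, and from -0.22 to -0.18 for the departure from additivity. The additive model called 900, 1805 and 1973 genes in all and 0, 0 and 0 mitotic members (medians -0.60, -0.55 and -1.15). It called 3 and 2 transport members after SP1 and SP3 siRNA (medians 0.069 after SP3 siRNA and -0.010 in the double knockdown). It turned the sign of KIF18A (0.047) and KIF13B (0.00016) after SP3 siRNA and of KIF5A (-0.13) after SP1 siRNA. With no filter 4180, 2106 and 3157 genes were called, 2636 for SP3 against SP1 siRNA, and 0 for the double knockdown against either single one and for the departure. Mitotic calls then numbered 6, 2 and 2, and 0 in the other 4 comparisons, while transport calls numbered 3 after SP1 siRNA, 2 after SP3 siRNA, 2 for SP3 against SP1 siRNA, and 0 for the double knockdown against either single one and for the departure. At a mean of at least 5 FPKM 5109 genes were called after SP1 siRNA, and 6, 6 and 5 mitotic members, 6 for the departure and 1 for SP3 against SP1 siRNA, since fewer members enter. Transport calls were then 4 after SP3 siRNA, 4 for SP3 against SP1 siRNA and 2 for the double knockdown against SP1 siRNA. The medians were then -1.46 (mitotic, SP1 siRNA) and 1.96 (mitotic departure), and for transport 0.24, 0.67 and 0.63, 0.48 for SP3 against SP1 siRNA and -0.37 for the departure. Mitotic medians were -1.50, -1.58 and -1.19 with a pseudocount of 0.1, -1.52, -1.59 and -1.25 by voom, and -1.51 after SP3 siRNA with 0.5. The mitotic departure was 1.97, 1.99 and 1.83 in these 3 settings, and 1.41 with KIF2A added to the class. Transport medians with a pseudocount of 0.1 were 0.085 after SP1 siRNA, -0.10 in the double knockdown and -0.24 for the departure, by voom 0.087, -0.10 and -0.25, and with 0.5 -0.085 in the double knockdown and -0.23 for the departure. Under median-ratio scaling they were 0.030 after SP1 siRNA, -0.080 in the double knockdown, 0.033 for SP3 against SP1 siRNA and -0.19 for the departure. Under upper-quartile scaling they were 0.057 after SP3 siRNA, -0.094 in the double knockdown, -0.041 for SP3 against SP1 siRNA and -0.20 for the departure. That scaling called 2353 genes and 2 mitotic members for the double knockdown against SP3 siRNA, and 2 mitotic members for SP3 against SP1 siRNA. It moved the median of all genes for SP3 against SP1 siRNA to -0.12, from -0.09. Median-ratio scaling turned the sign of KIF13A after SP1 siRNA (-0.030) and for the departure (0.0039), of KIF16B (0.018), KIF2A (0.027) and KIF3B (0.048) for SP3 against SP1 siRNA, of KIF26A for the double knockdown against SP1 siRNA (0.0061) and of KIF2A for the departure (0.0026). Upper-quartile scaling turned that of KIF13A after SP1 siRNA (-0.00077), KIF16B after SP3 siRNA (-0.0075), KIF21B for the double knockdown against SP1 siRNA (-0.0037) and KIF22 for SP3 against SP1 siRNA (-0.021). The cause of these moves was not tested. Over 210 member values, 200 kept their side of the threshold by voom and 10 gained a call, and 208 did so with a pseudocount of 0.5. FPKM rests on 14678068 to 15970519 reads per library, and members under 1 FPKM have wide counting intervals.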

Other observations

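KIF genes under 1 FPKM in every library were not tested, and their values carry no p. KIF1A, a motor of synaptic vesicle precursors in neurons, was at 0.894, 0.483 and 0.723 FPKM after SP1, SP3 and double siRNA, against 0.315 and 0.175 FPKM in the controls. In reads that is 366% (95% Poisson interval 272 to 495%), 198% (141 to 278%) and 296% (216 to 407%) of the control mean. These intervals hold counting error only, and the controls themselves lay far apart. KIF26B was at 0.259, 0.138 and 0.286 FPKM after SP1, SP3 and double siRNA, against 0.122 and 0.116 FPKM in the controls, or 218% (146 to 326%), 116% (71.5 to 186%) and 240% (162 to 358%) of their mean. Its 2 higher libraries are those that received SP1 siRNA.

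KIF27 stood at 161% of the control mean after SP1 siRNA (129 to 201%), and at 93.7% (72.1 to 121%) and 123% (96.6 to 157%) after SP3 and double siRNA. KIF24, a centriole kinesin, stood at 142% (108 to 188%), 68.5% (47.6 to 96.8%) and 108% (78.6 to 146%) in the same libraries. KIF7, a ciliary regulator of Hedgehog signalling, was listed at 0.110, 0.133 and 0.115 FPKM after SP1, SP3 and double siRNA, against 0.0135 and 0.0266 FPKM in the controls, and 11.8% of its exon bases overlap TICRR. These KIF7 values rest on only 8, 10 and 8 reads, against 1 and 2 reads in the controls. KIF19 was listed at 0 to 0.273 FPKM and KIF6 at no more than 0.01 FPKM. KIF25 and KIF2B were listed at 0 in all 5 libraries.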
